A study of Mus musculus with 9 samples.

Results

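Genes of glucocorticoid action, 10 in all, were followed through the kidney cortex of mice in the control, dbdb and dbR groups. They are the receptors Nr3c1 and Nr3c2, the enzymes Hsd11b1 and Hsd11b2, the target genes Fkbp5, Tsc22d3, Zbtb16 and Klf9, and the metallothioneins Mt1 and Mt2. The genes were looked up by symbol in the deposited mRNA tables and the FPKM of their transcripts (fragments scaled to the length of the transcript and to the mapped fragments of each library) was summed to 1 value per gene. They are 10 of 21950 genes in the tables, and all 10 passed the filter on low values (mean FPKM 0.1 or more), which left 14537 genes for the fit. They were chosen with their values in these 9 libraries already seen, so their levels and differences are given below as a description, with no test.

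All mice were males on the C57BL/KsJ background and were 15 weeks old when the cortex was taken, with 3 mice and 1 library per mouse in each group. Control mice were non-diabetic db/m mice, which carry the Leptin receptor (db) mutation on 1 copy of the gene; the sources used here do not say whether they were gavaged. The dbdb mice were homozygous for the mutation and diabetic, and received the vehicle by gavage, while the dbR mice were db/db mice given rosiglitazone, which activates the nuclear receptor PPARγ, by gavage (20 mg/kg/day) between 7 and 15 weeks of age. The db mutation is carried by every cell, so control and db/db mice differ in Leptin receptor genotype in all organs, while dbdb and dbR mice share it. The dbR group has no lean counterpart on the drug.

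Glucocorticoids (corticosterone in the mouse) are made in the adrenal cortex and act through the glucocorticoid receptor, which waits in the cytoplasm in a complex with heat shock proteins, moves to the nucleus when it binds the hormone and switches on target genes. In the kidney the same hormone also binds the mineralocorticoid receptor of the distal nephron with high affinity, and an enzyme that inactivates it keeps that receptor free for aldosterone. Another enzyme turns the inactive form back into corticosterone, so the balance of both enzymes sets how much hormone reaches the receptors in a cell. The db/db mouse is known for raised corticosterone in blood, but the hormone was not among the measurements used here.

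Read counts were not at hand, so relative depth was estimated from the FPKM of genes with 1 transcript and low values. The most frequent ratio of 2 libraries over these genes was taken as the inverse ratio of their depths. On this estimate the 9 libraries were alike, at 0.914 to 1.14 of control replicate 1. Mitochondrial genes held 26.9% to 32.8% of the summed mRNA FPKM. Control replicate 3 stood apart in several genes: Hsd11b1 was highest there, and Hsp90aa1, a chaperone of the receptor that was picked out after its values were seen, stood at 2.14 FPKM against 143 and 199 in the other control libraries and 98.0 to 118 in the dbdb and dbR libraries. The tissue label was checked against markers of the proximal tubule, of which Slc34a1 stood between 1146 and 1641 FPKM in every library. The defining genes of the adrenal cortex Cyp11b1, Cyp11b2 and Nr5a1 were at 0 in all 9 libraries, and the summed FPKM of 7 adrenal genes stayed between 0.728 and 1.68, most of it Star.

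In dbdb cortex every library lay above every control library for 8 of the 10 genes, namely Nr3c2, Hsd11b2, Fkbp5, Tsc22d3, Zbtb16, Klf9, Mt1 and Mt2, and below every control library for the other 2, Nr3c1 and Hsd11b1. Of all genes tested, 21.2% lay wholly above and 21.2% wholly below control in dbdb. In the dbR group 6 of these genes (Fkbp5, Tsc22d3, Zbtb16, Klf9, Mt1 and Mt2) lay below every dbdb library, Nr3c1 and Hsd11b1 lay above every dbdb library, and Nr3c2 and Hsd11b2 overlapped with dbdb, where 10.7% of all genes lay wholly above and 11.9% wholly below. Set against the control group, dbR libraries did not overlap for 6 genes above and 2 below, and overlapped for Tsc22d3 and Klf9, where 20.8% of all genes lay wholly above and 21.1% wholly below. The median log2 difference over the 10 genes was 0.99 in dbdb vs. control, -0.37 in dbR vs. dbdb and 0.70 in dbR vs. control, and over all 14537 genes tested it was -0.0030, -0.0022 and -0.0014.

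As the 10 genes were selected on these contrasts, nothing is read from their counts. The 3 comparisons share libraries, so a high dbdb value enters dbdb vs. control and dbR vs. dbdb with opposite sign.

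**Figure D1:**
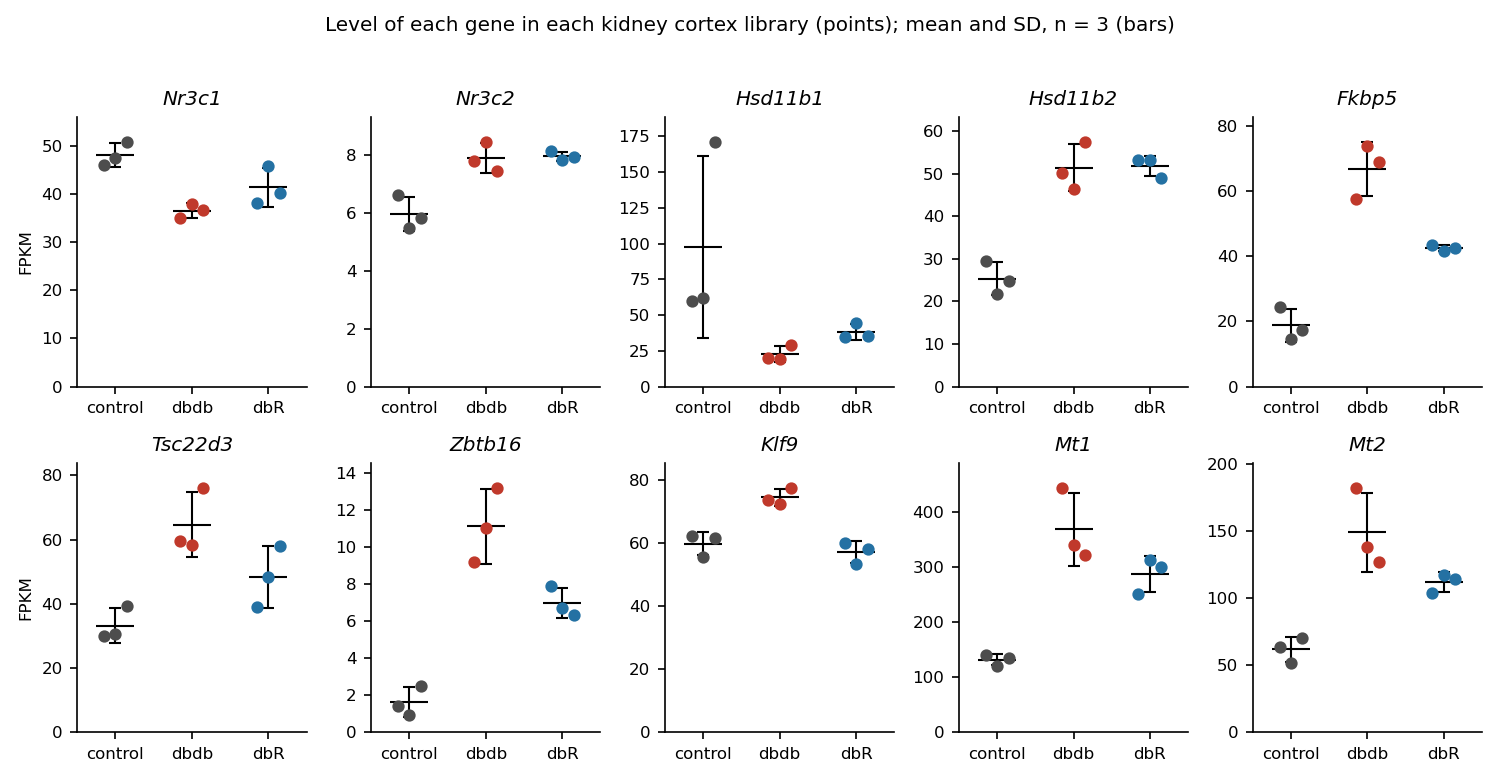
Level in FPKM (vertical axis, from 0) of each of the 10 genes in the 3 control, 3 dbdb and 3 dbR libraries (points), with the mean and SD of each group (horizontal and vertical lines). Fkbp5, Zbtb16 and Mt1 show 3 separate tiers, with control lowest, dbdb highest and dbR between them, while Hsd11b2 and Nr3c2 stand at the same height in dbdb and dbR.

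The receptors moved in opposite directions. Nr3c1 (ENSMUSG00000024431), the glucocorticoid receptor, stood at 46.0, 47.5 and 50.9 FPKM in control, 35.0, 38.0 and 36.7 FPKM in dbdb and 38.1, 45.9 and 40.2 FPKM in dbR. All dbdb libraries were therefore the lowest, with a mean of 36.6 ± 1.48 against 48.1 ± 2.53 (SD, n = 3), a log2 difference of -0.39 with a standard error (SE) of 0.08 from the fit. The dbR values were higher than those of dbdb by 0.17 (SE 0.08) on the log2 scale, and by 0.10 without dbR replicate 2. Their highest library (45.9 FPKM) nearly reached the lowest control library (46.0 FPKM). With scaling to the 75th percentile, mitochondrial genes left out or quantile normalization, dbR and control overlapped. Of 8 transcripts listed for Nr3c1, ENSMUST00000115571 held 59.1% of the FPKM in control, 55.0% in dbdb and 55.6% in dbR, while ENSMUST00000115567 held 12.1%, 17.0% and 16.0% and its libraries overlapped between the groups.

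Nr3c2 (ENSMUSG00000031618, chromosome 8, 76899442 to 77245012, plus strand, GRCm38), the mineralocorticoid receptor, was lower in level than Nr3c1 in every library. It stood at 6.62, 5.49 and 5.81 FPKM in control, at 7.79, 8.47 and 7.44 FPKM in dbdb, and at 8.13, 7.82 and 7.92 FPKM in dbR. Both db/db groups lay above control, by 0.40 (SE 0.09) in dbdb and 0.41 (SE 0.09) in dbR on the log2 scale, and they did not separate from each other. The ratio of the FPKM of Nr3c1 to that of Nr3c2 averaged 8.12 ± 1.02 for control, 4.64 ± 0.251 for dbdb and 5.21 ± 0.607 for dbR (SD, n = 3), with every control library above every db/db library.

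The enzymes also moved in opposite directions. Hsd11b2 (ENSMUSG00000031891, chromosome 8, 105518755 to 105523988, plus strand) inactivates corticosterone in the distal nephron. It stood at 29.5, 21.8 and 24.8 FPKM in control, 50.3, 46.5 and 57.5 FPKM in dbdb, and 53.2, 53.2 and 49.0 FPKM in dbR. The level in dbdb was 2.03-fold that of control, a log2 difference of 1.02 (SE 0.11), and dbR differed from dbdb by 0.01 (SE 0.11).

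Hsd11b1 (ENSMUSG00000016194, chromosome 1, 193221634 to 193264075, minus strand) regenerates corticosterone from its inactive form. It stood at 59.6, 62.1 and 171 FPKM in control, 19.9, 19.1 and 29.0 FPKM in dbdb, and 34.3, 44.7 and 35.4 FPKM in dbR. Control replicate 3 was far above the other control libraries, but all 3 control libraries lay above all db/db libraries, and dbR lay between. The log2 difference of dbdb vs. control was -1.94 (SE 0.35) with all libraries and -1.45 (SE 0.18) without control replicate 3, and that of dbR vs. control was -1.18 (SE 0.35) and -0.68 (SE 0.18).

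With one enzyme down and the other up, the ratio of Hsd11b2 to Hsd11b1 FPKM separated the groups widely. Its values were 0.495, 0.350 and 0.145 for control, 2.53, 2.43 and 1.98 for dbdb, and 1.55, 1.19 and 1.38 for dbR. In control cortex the regenerating enzyme had the higher level, in both db/db groups the inactivating one did, and the dbR libraries lay between the other groups with no overlap. The cortex is a mixture of nephron segments, so this ratio over the whole cortex is not the balance of both enzymes within a cell. In bulk samples fewer cells of a type and less RNA per cell cannot be told apart.

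The Hsd11b1 difference was uneven over its 5 listed transcripts. ENSMUST00000161737, whose start at base 193264075 is the farthest upstream, stood at 22.5, 20.8 and 31.3 FPKM in control, 15.6, 16.2 and 27.2 FPKM in dbdb and 30.6, 40.5 and 32.1 FPKM in dbR. Its control and dbdb libraries overlapped, and every dbR library lay above every dbdb library. The other 4 transcripts start at least 20514 bases downstream, and their sum was 37.2, 41.3 and 140 FPKM in control against 1.87 to 4.21 FPKM in dbdb and 3.27 to 4.20 FPKM in dbR. These downstream starts held 62.3%, 66.5% and 81.7% of the gene's FPKM in the control libraries and between 6.44% and 21.2% in the db/db libraries, and the excess of control replicate 3 lay mostly in them. The division of reads among overlapping transcripts was estimated by Cufflinks, so the values of single transcripts are less sure than the sum.

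**Figure D2:**
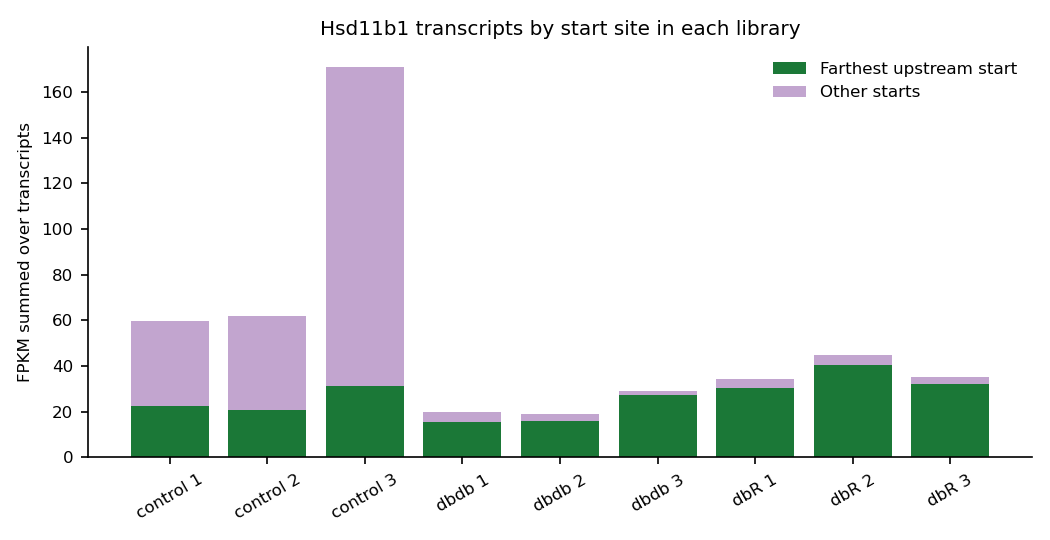
FPKM of Hsd11b1 in each library (vertical axis), stacked as the transcript with the farthest upstream start (lower part) and the sum of the 4 transcripts with other starts (upper part). The upper part holds most of the bar in the 3 control libraries and is 4.21 FPKM or less in the 6 db/db libraries.

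Genes of the last part of the proximal tubule, several of them known to respond to androgen, were lower with Hsd11b1 in dbdb cortex. All 5 on that list (Slc7a13, Cyp7b1, Kap, Slc22a7 and Acsm3) fell in dbdb vs. control, against 13.4% of all genes, with limma adjusted p-values of 1.4e-05 or less, and their summed FPKM, nearly all of it Kap, was 35630 to 46690 in control, 4871 to 5802 in dbdb and 6285 to 7813 in dbR. Control replicate 3 was the highest library for each of the 5. In dbR vs. dbdb 1 of the 5, Slc7a13, rose (adjusted p = 0.028), against 0.564% of all genes. It was called in 14 of 21 fits and not without dbR replicate 2 or 3 or dbdb replicate 1 or 2, with no filter, with no trend or with only the 6 libraries of the comparison (adjusted p up to 0.12). Every dbR library lay below every dbdb library for Acsm3 (8.15 against 10.4 FPKM in the mean, adjusted p = 0.49), where Hsd11b1 lay above, and Cyp7b1 had a mean of 2.91 FPKM in dbR against 3.25 FPKM in dbdb (adjusted p = 0.84). Their part in the Hsd11b1 result was not tested.

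Markers of other cells of the cortex also differed between the groups. All 4 endothelial genes (Pecam1, Kdr, Emcn and Cdh5) fell in dbdb vs. control, against 13.4% of all genes, and all 4 lay wholly above dbdb in dbR, as Nr3c1 and Hsd11b1 did, against 10.7% of all genes. Their summed FPKM was 90.0 to 98.7 in control, 63.3 to 69.1 in dbdb and 90.3 to 108 in dbR. Emcn, which encodes a glycoprotein of the endothelial surface, had log2 differences of -0.61 (SE 0.08, adjusted p = 0.00075) in dbdb vs. control and 0.66 (SE 0.08, adjusted p = 0.02) in dbR vs. dbdb, and Kdr, a receptor for VEGF, differences of -0.34 (SE 0.08, adjusted p = 0.014) and 0.52 (SE 0.08, adjusted p = 0.031). In dbR vs. dbdb these 2 of the 4 were called, against 0.564% of all genes called higher. Emcn was called in 16 and Kdr in 13 of 21 fits. Neither was called without dbR replicate 2 or 3, with no trend or with only the 6 libraries of the comparison. Emcn was also not called without dbdb replicate 2, and Kdr not without dbR replicate 1 or dbdb replicate 1, with no filter or with mitochondrial genes left out. In dbdb vs. control Emcn and Pecam1 were called in all 21 fits, Kdr in 19 (not without control replicate 2 or with mitochondrial genes left out) and Cdh5 in 11 (among others not without any 1 of the control libraries, dbdb replicate 2 or 3 or dbR replicate 1). Of 4 macrophage genes 3 (Cd68, Adgre1 and Csf1r) fell in dbdb vs. control, against 13.4% of all genes. Their summed FPKM with C1qa was 27.5 to 32.1 in control, 13.0 to 21.2 in dbdb and 17.8 to 23.3 in dbR. None of these 4 was called in dbR vs. dbdb by limma, against 0.564% of all genes called higher and 0.179% called lower. An unadjusted p under 0.05 was found for 3 of the 4 and for 17.5% of all genes. Of 3 genes of fibroblasts and mesangium, 2 (Pdgfrb and Col1a1) lay wholly below control in dbdb, against 21.2% of all genes. Both lay wholly above dbdb in dbR, against 10.7% of all genes, and Dcn overlapped in both comparisons. None of the 3 was called in dbdb vs. control by limma, and only Pdgfrb was in dbR vs. dbdb (adjusted p = 0.023 in the fit reported). The part of these cells in the values of the 10 genes was not tested.

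Hsd11b2 and Nr3c2 belong to the aldosterone-sensitive distal nephron, and 11 of 13 other genes of that segment rose in dbdb vs. control. The largest were the epithelial sodium channel subunits Scnn1a (log2 difference 1.35, SE 0.12, adjusted p = 7.3e-05) and Scnn1g (1.02, SE 0.08, adjusted p = 3.5e-05), the thiazide-sensitive cotransporter Slc12a3 (0.98, SE 0.07, adjusted p = 2.6e-05) and its regulator Wnk4 (0.86, SE 0.11, adjusted p = 0.0005). Of all genes, 13.1% were called higher and 13.4% lower in dbdb vs. control at an adjusted p under 0.05. In dbR vs. control 11 of 13 were higher, where 12.3% of all genes were called higher and 11.8% lower. In dbR vs. dbdb only Fxyd4, a regulator of the sodium pump in the collecting duct, was called (0.64, SE 0.12, adjusted p = 0.043), against 0.564% of all genes called higher and 0.179% called lower, and it was not called with no filter, without mitochondrial genes, with no trend or with lncRNA genes in the fit. All 3 markers of the distal convoluted tubule (Slc12a3 among them), all 3 of intercalated cells and 2 of 4 of principal cells (Aqp2 and Scnn1g) also rose in dbdb, with Slc12a3, Scnn1g and Fxyd4 on the list of the distal nephron as well, and the principal cell genes Aqp3 (0.20, adjusted p = 0.34) and Fxyd4 (-0.18, adjusted p = 0.27) were not called. The summed FPKM of the principal cell list was 93.4 to 113 in control, 130 to 220 in dbdb and 141 to 166 in dbR, and that of the distal convoluted tubule list was 156 to 176 FPKM in control, 287 to 314 FPKM in dbdb and 320 to 359 FPKM in dbR; their part in the Hsd11b2 and Nr3c2 results was not tested.

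Of the target genes, Fkbp5 (ENSMUSG00000024222, chromosome 17, 28399094 to 28517527, minus strand) encodes a cochaperone that lowers the hormone affinity of the receptor and is itself induced through it, which makes a short feedback loop. The control libraries held 24.6, 14.7 and 17.4 FPKM, the dbdb libraries 57.6, 73.9 and 69.1 FPKM, and the dbR libraries 43.5, 41.7 and 42.5 FPKM. The dbdb mean was 3.54-fold that of control, a log2 difference of 1.85 (SE 0.16), and the dbR mean was 0.637 of the dbdb mean, a log2 difference of -0.64 (SE 0.16). The 3 dbR libraries were close together, with a coefficient of variation of 2.08% against 27.1% in control and 12.5% in dbdb. Transcript ENSMUST00000079413 held 96.2% of the FPKM of the gene, and the 250 bases before its start at base 28486149 (RefSeq, GRCm38.p6, chr17:28486150-28486399, minus strand) are shown because this start carries the change.

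Fkbp5: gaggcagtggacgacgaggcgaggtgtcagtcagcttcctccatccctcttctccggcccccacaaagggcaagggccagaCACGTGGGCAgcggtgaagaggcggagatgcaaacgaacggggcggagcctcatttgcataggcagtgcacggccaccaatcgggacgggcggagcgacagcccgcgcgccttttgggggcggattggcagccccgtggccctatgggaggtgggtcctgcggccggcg

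The capitals mark a CACGTG E-box at position -169, counted from the start, and an overlapping match to the metal-response core TGCNCNC at -166. Neither the palindrome GNACANNNTGTNC, the shape of a site for the glucocorticoid or mineralocorticoid receptor, nor its hexamer TGTTCT was found in this window on either strand. Among 32851 RefSeq windows of the same length, 6.02% held CACGTG, 44.4% held TGCNCNC, 16.1% held TGTTCT and 0.387% held the palindrome. Windows were used for 7 of the 10 genes, 9 windows in all, with none for Nr3c1, Hsd11b2 and Zbtb16, and TGTTCT occurred in 1 of them, the window before the upstream start of Tsc22d3.

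Tsc22d3 (ENSMUSG00000031431, chromosome X, 140539528 to 140600659, minus strand) encodes GILZ, a leucine zipper protein that mediates anti-inflammatory actions of glucocorticoids. It stood at 29.8, 30.5 and 39.5 FPKM in control, 59.5, 58.2 and 76.2 FPKM in dbdb, and 38.9, 48.4 and 58.0 FPKM in dbR. The dbdb libraries were the highest, by 0.96 (SE 0.16) on the log2 scale over control, while dbR was lower than dbdb by -0.42 (SE 0.16), and by -0.27 without dbR replicate 1. The nearest libraries were 58.0 FPKM in dbR and 58.2 FPKM in dbdb. The short transcript ENSMUST00000055738 held 87.4% of the FPKM in control, 88.1% in dbdb and 87.4% in dbR, and ENSMUST00000112996, from the start upstream, rose alongside it from 4.21 to 7.52 FPKM. For ENSMUST00000055738 alone the dbR and dbdb libraries overlapped, with 53.0 FPKM in dbR replicate 3 against 52.0 and 50.9 FPKM in dbdb replicates 1 and 2.

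Zbtb16 (ENSMUSG00000066687, chromosome 9, 48654297 to 48836222, minus strand) encodes the zinc finger transcription factor PLZF and had the largest log2 difference of the 10 genes. The control libraries held 1.43, 0.959 and 2.53 FPKM, the dbdb libraries 9.18, 11.0 and 13.2 FPKM, and the dbR libraries 7.90, 6.71 and 6.33 FPKM. The dbdb mean was 6.79-fold and the dbR mean 4.26-fold that of control, with log2 differences of 2.78 and 2.12 (SE 0.27 for both), and dbR was lower than dbdb by -0.66 (SE 0.27). Control levels were low enough for the pseudocount to matter, and with a pseudocount of 1 the dbdb vs. control difference was 2.23.

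Klf9 (ENSMUSG00000033863, chromosome 19, 23141226 to 23168134, plus strand) encodes a Krüppel-like transcription factor induced by glucocorticoids and thyroid hormone, and its differences were small. It stood at 62.3, 55.7 and 61.8 FPKM in control, 73.8, 72.4 and 77.7 FPKM in dbdb and 60.0, 53.3 and 58.3 FPKM in dbR. Its dbdb libraries were the highest, by 0.32 (SE 0.07) over control on the log2 scale, and dbR was lower than dbdb by -0.38 (SE 0.07). Klf9 was the only one of the 10 genes for which the dbR mean came back past the control mean, with a log2 difference of -0.07 (SE 0.07). With mitochondrial genes left out of the scaling it became 0.03, but that scaling also moved the median of all genes in dbR vs. control to 0.089.

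The metallothioneins Mt1 (ENSMUSG00000031765, chromosome 8, 94179082 to 94180327) and Mt2 (ENSMUSG00000031762, chromosome 8, 94172664 to 94173568) lie side by side on the plus strand and encode small proteins that bind zinc and copper, induced by metals through the factor MTF1 and by glucocorticoids. Mt1 was 140, 121 and 135 FPKM in control, 444, 341 and 321 FPKM in dbdb and 251, 313 and 300 FPKM in dbR. Mt2 was 63.4, 51.6 and 70.6 FPKM in control, 182, 138 and 127 FPKM in dbdb and 104, 118 and 115 FPKM in dbR. For both genes dbdb was highest, control lowest and dbR between, with dbdb replicate 1 above all other libraries. The log2 differences in dbdb vs. control were 1.47 (SE 0.13) for Mt1 and 1.26 (SE 0.14) for Mt2, and those in dbR vs. dbdb were -0.35 (SE 0.13) and -0.40 (SE 0.14), or -0.21 and -0.24 without dbdb replicate 1. The ratio of Mt1 to Mt2 FPKM averaged 2.16 ± 0.225 for control, 2.48 ± 0.0506 for dbdb and 2.56 ± 0.130 for dbR (SD, n = 3). Every dbdb and dbR library had a ratio above every control library, a much smaller difference than that of the levels.

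The 250 bases before the RefSeq starts of both genes (GRCm38.p6, plus strand, chr8:94178839-94179088 for Mt1 and chr8:94172368-94172617 for Mt2) are shown because the neighbours moved together. The windows sit unevenly on the GENCODE starts. That of Mt1 runs past the start at base 94179082, and that of Mt2 ends before the start at base 94172664. Motifs outside the windows were not sought, so the matches do not compare the whole promoters. Capitals mark the palindrome GNACANNNTGTNC and the metal-response core TGCNCNC.
Mt1: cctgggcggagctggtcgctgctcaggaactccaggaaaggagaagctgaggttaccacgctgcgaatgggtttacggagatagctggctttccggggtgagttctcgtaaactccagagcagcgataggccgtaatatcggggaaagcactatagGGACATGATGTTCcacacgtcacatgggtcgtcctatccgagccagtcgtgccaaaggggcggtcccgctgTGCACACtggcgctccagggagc
Mt2: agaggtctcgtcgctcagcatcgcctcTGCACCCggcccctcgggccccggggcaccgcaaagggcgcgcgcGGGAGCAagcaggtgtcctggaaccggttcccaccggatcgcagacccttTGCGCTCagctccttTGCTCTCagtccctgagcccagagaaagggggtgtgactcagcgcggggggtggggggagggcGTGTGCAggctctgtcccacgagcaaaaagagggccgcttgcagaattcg
The Mt1 window held a palindrome at -94 and 1 core at -23, and was the only member window with the palindrome. The Mt2 window held 5 cores, at -223, -178, -128, -113 and -50, and no palindrome. At least 5 cores occurred in 0.344% of the 32851 windows and at least 1 in 44.4%. A match of letters is a description of the window and was not tested for binding.

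**Figure D3:**
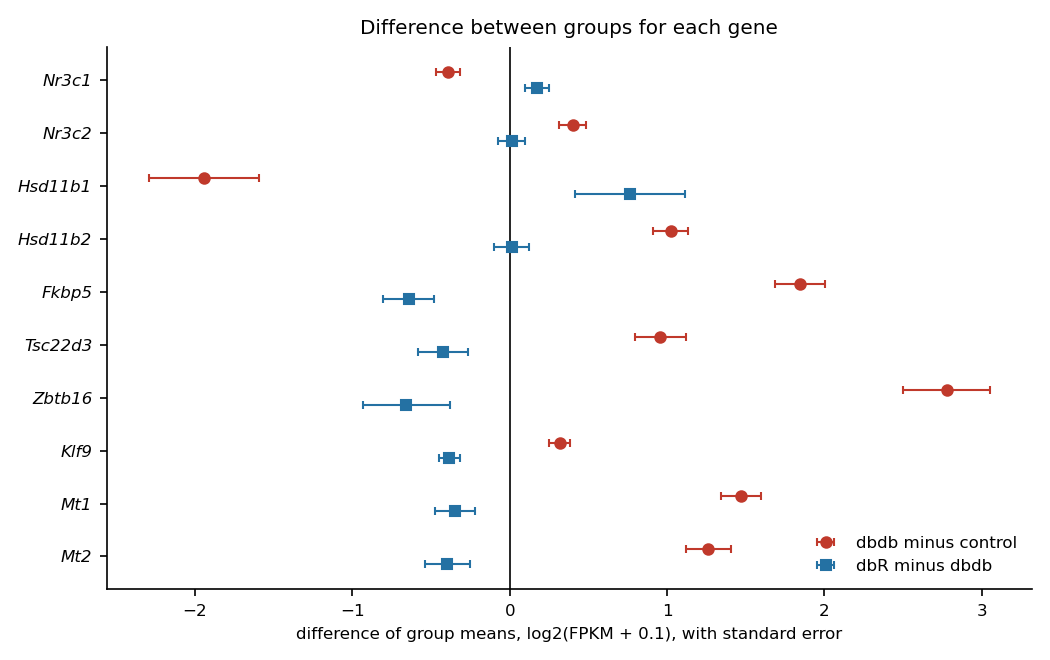
Difference of group means on the log2(FPKM + 0.1) scale (horizontal axis) for each gene, with the standard error from the fit, for dbdb minus control (circles) and dbR minus dbdb (squares). The squares lie on the other side of 0 from the circles for 8 genes and near 0 for Nr3c2 and Hsd11b2.

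As a share of the log2 difference between dbdb and control, the dbR group lay nearer to control by 23.6% for Zbtb16, 23.8% for Mt1, 31.5% for Mt2, 34.8% for Fkbp5, 39.3% for Hsd11b1, 44.2% for Nr3c1, 44.3% for Tsc22d3 and 121% for Klf9. Nr3c2 and Hsd11b2 stood a little farther from control in dbR than in dbdb, by -3.00% and -1.37% of the difference. Single libraries moved several of these shares. Leaving out 1 library at a time, the share ranged from 24.7% to 58.9% for Nr3c1 (without dbR replicate 2 and 1), from 28.7% to 58.8% for Tsc22d3 (without dbR replicate 1 and 3), from 15.6% to 28.3% for Mt1 and from 22.0% to 36.9% for Mt2 (both without dbdb replicate 1 and 3), so the order of the genes by share is not firm. For Hsd11b1 it ranged from 33.2% to 52.8%, for Fkbp5 from 31.3% to 38.3%, for Zbtb16 from 19.9% to 27.1% and for Klf9 from 105% to 145%, and those of Nr3c2 and Hsd11b2 changed sign. The order of levels also changed. In control the highest was Mt1 (132 FPKM), followed by Hsd11b1 (97.6 FPKM), which without control replicate 3 stood at 60.9 FPKM, close to Klf9 (59.0 FPKM) and Mt2 (57.5 FPKM). In control Fkbp5 (18.9 FPKM) stood above Nr3c2 (5.97 FPKM) and Zbtb16 (1.64 FPKM) alone. In dbdb, Fkbp5 (66.9 FPKM) stood beside Tsc22d3 (64.6 FPKM) within their spread, and Hsd11b1 (22.7 FPKM) had dropped below Nr3c1 (36.6 FPKM).

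Other genes known to be induced by glucocorticoids in many tissues were taken from a list of 36 symbols, of which 34 were found and 33 were tested. This list, like the other gene lists used here, was chosen with earlier results of these data known, so its counts are not an independent test. In dbdb vs. control 22 of the 33 rose and none fell in the limma fit, with a median log2 difference of 0.94, where 13.1% of all genes were called higher and 13.4% lower. An unadjusted p under 0.05 was found for 26 of the 33 and for 38.8% of all genes. Without control replicate 3, 21 rose and 1 fell, the repressor Bcl6 (-1.27, SE 0.33, adjusted p = 0.028), which with all libraries had a difference of -0.89 (adjusted p = 0.11). The largest were Hif3a, which encodes an inhibitory partner of the hypoxia factors, the kinase Sgk1, which activates sodium transport, Angptl4, an inhibitor of lipoprotein lipase, and Cdkn1a, the cell cycle inhibitor p21. Hif3a had a log2 difference of 2.70 (SE 0.27, adjusted p = 0.00014) and rose from 0.167 to 0.301 FPKM in control to 1.72 to 2.67 FPKM in dbdb. Sgk1 was 30.2 to 35.4 FPKM in control and 165 to 297 FPKM in dbdb (2.61, SE 0.33, adjusted p = 0.00047). Angptl4 was 4.83 to 9.93 FPKM in control and 21.2 to 33.2 FPKM in dbdb (1.92, SE 0.35, adjusted p = 0.0033). Many of these genes also answer to insulin, fasting, PPARs or the clock, and 2 of them, Per1 and Gadd45b, were picked by the study from these libraries.

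In dbR vs. dbdb 3 of the 33 fell and none rose in the limma fit, where 0.564% of all genes were called higher and 0.179% lower. An unadjusted p under 0.05 was found for 14 of the 33 and for 17.5% of all genes. Cdkn1a was 3.46, 4.85 and 6.14 FPKM in dbdb and 1.93, 1.82 and 2.04 FPKM in dbR (-1.24, SE 0.20, adjusted p = 0.03). Pdk4, the kinase that turns off pyruvate dehydrogenase, was 3.99, 3.64 and 5.21 FPKM in dbdb and 1.95, 2.18 and 2.14 FPKM in dbR (-0.98, SE 0.14, adjusted p = 0.025). Lpin1, a phosphatidate phosphatase, was 18.6, 20.1 and 15.9 FPKM in dbdb and 12.8, 10.7 and 11.8 FPKM in dbR (-0.62, SE 0.11, adjusted p = 0.044). All 3 calls were near the threshold. None of the 3 was made without dbR replicate 1, 2 or 3, with no filter, with no trend or with only the 6 libraries of the comparison, and 1 was made without dbdb replicate 1 or 2. Lpin1 was also lost without control replicate 1 or 3 (adjusted p = 0.062 and 0.054). In dbR vs. control 20 of the 33 were called higher and none lower, where 12.3% of all genes were called higher and 11.8% lower (25 of the 33 and 36.8% of all genes had an unadjusted p under 0.05), led by Hif3a (2.39, SE 0.27, adjusted p = 0.00029), Sgk1 (1.80, SE 0.33, adjusted p = 0.004), Lcn2, which encodes a lipocalin of injured tubules (1.76, SE 0.29, adjusted p = 0.0023), and Pck1, the key enzyme of gluconeogenesis (1.42, SE 0.15, adjusted p = 0.00023).

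**Figure D4:**
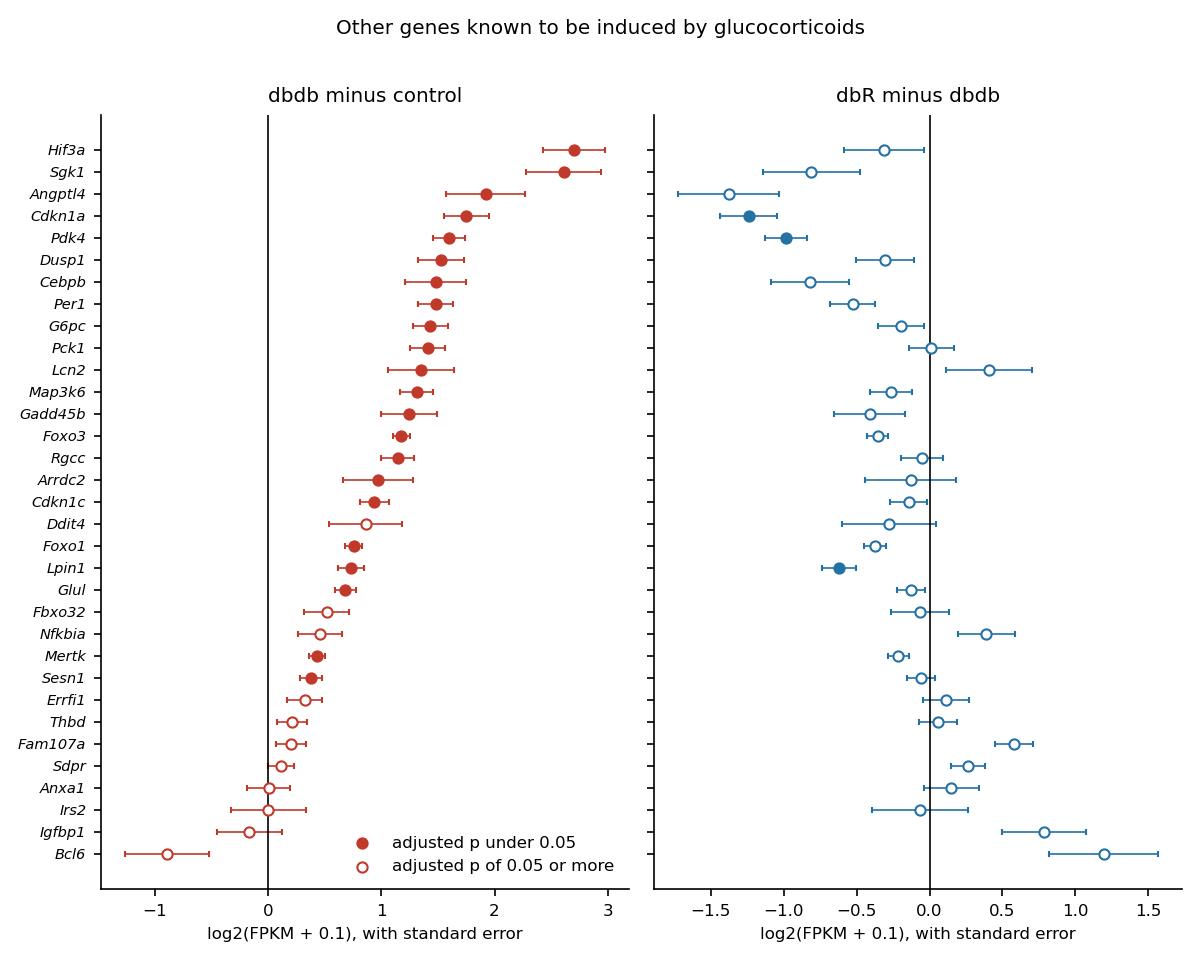
Difference on the log2(FPKM + 0.1) scale (horizontal axes) with its standard error for the 33 other glucocorticoid-induced genes tested, ordered by dbdb minus control (left) and shown in the same order for dbR minus dbdb (right). Filled points passed an adjusted p of 0.05, 22 of them on the left and 3 (Cdkn1a, Pdk4 and Lpin1) on the right.

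Of 14 chaperones of the receptor complex, 8 fell and 1 (Ppp5c) rose in dbdb vs. control, against 13.4% and 13.1% of all genes, the largest being Dnaja1 (-0.75, SE 0.08, adjusted p = 0.00022), Hsp90ab1 (-0.65, SE 0.09, adjusted p = 0.00082), Hspa8 (-0.60, SE 0.09, adjusted p = 0.0014) and Dnajb1 (-0.59, SE 0.12, adjusted p = 0.0054). In dbR vs. control 8 were lower and none higher, against 11.8% and 12.3% of all genes, and in dbR vs. dbdb none was called by limma, with 3 of the 14 at an unadjusted p under 0.05 against 17.5% of all genes. Among 14 coactivators and corepressors of the receptors, Nrip1 (0.43, SE 0.11, adjusted p = 0.018, and 0.066 without dbdb replicate 2) rose in dbdb and Ncor1 fell (-0.28, SE 0.07, adjusted p = 0.012), a call lost with mitochondrial genes left out or quantile normalization. None of the 14 was called in dbR vs. dbdb by limma, and none had an unadjusted p under 0.05.

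Of 10 other enzymes and carriers of corticosteroids tested, 3 rose and 4 fell in dbdb vs. control, against 13.1% and 13.4% of all genes. The steroid reductases Akr1c18 (-3.53, SE 0.27, adjusted p = 2.8e-05) and Srd5a2 (-2.54, SE 0.46, adjusted p = 0.0035) fell, and the drug pump Abcb1b, which exports corticosteroids (1.01, SE 0.11, adjusted p = 0.00016), and the carbonyl reductase Cbr1 (0.70, SE 0.08, adjusted p = 0.00029) rose. Abcb1b was higher again in dbR than in dbdb, at 7.95, 8.21 and 8.51 FPKM against 5.36, 6.0 and 4.89 FPKM (0.60, SE 0.11, adjusted p = 0.042), a call lost with no filter, with mitochondrial genes left out, with no trend, with only the 6 libraries of the comparison and with lncRNA genes in the fit.

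Of 12 genes of zinc handling tested, 2 rose and 3 fell in dbdb vs. control, against 13.1% and 13.4% of all genes. The zinc importers Slc39a8 (-1.20, SE 0.12, adjusted p = 0.00014) and Slc39a10 (-0.77, SE 0.08, adjusted p = 0.00013) fell, and Slc39a14 (0.71, SE 0.15, adjusted p = 0.0073) and Slc39a5 (0.30, SE 0.07, adjusted p = 0.014) rose. The zinc sensor Mtf1 had a log2 difference of -0.18 (SE 0.13, adjusted p = 0.33) and the zinc exporter Slc30a1, another target of it, one of -0.13 (SE 0.07, adjusted p = 0.21). Slc39a14 was 8.30 to 13.0 FPKM in control, 15.3 to 17.8 FPKM in dbdb and 8.50 to 10.5 FPKM in dbR, so that every dbR library lay below every dbdb library (-0.77, adjusted p = 0.052, and 0.033 to 0.20 over all fits). In dbR vs. dbdb the exporter Slc30a2 fell from 29.1, 32.0 and 31.0 FPKM to 21.7, 21.1 and 22.8 FPKM (-0.49, SE 0.08, adjusted p = 0.031), a call lost with no filter or no trend, and its control libraries, at most 28.9 FPKM, lay below every dbdb library. Of the genes on these lists called in dbR vs. dbdb, Fxyd4, Abcb1b and Slc30a2 were also lost without any 1 of the dbR or dbdb libraries, with adjusted p-values of 0.051 to 0.16, Fxyd4 also without control replicate 2 (adjusted p = 0.057) and Abcb1b also without control replicate 1 (adjusted p = 0.058).

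Clock genes were read as context, because Klf9, Per1 and other targets follow the time of day and the time of sampling is not given in the sources used here. Of 16 clock genes 6 rose and 3 fell in dbdb vs. control, against 13.1% and 13.4% of all genes, with the largest difference in Cry1 (2.24, SE 0.15, adjusted p = 1.7e-05). Per1, which is also on the list of glucocorticoid-induced genes, rose from 16.2, 11.0 and 14.1 FPKM to 43.4, 35.7 and 36.0 FPKM (1.48, SE 0.16, adjusted p = 0.00016), Dbp fell (-0.52, SE 0.12, adjusted p = 0.011) and Arntl had a difference of 0.33 (SE 0.33, adjusted p = 0.5, and 0.045 without dbdb replicate 1). In dbR vs. dbdb 5 of the 16 lay wholly below, against 11.9% of all genes, and 1, Per2, was called. Per2, named after its values were seen, averaged 7.17 FPKM in control, 16.6 FPKM in dbdb and 11.8 FPKM in dbR (-0.49 in dbR vs. dbdb, adjusted p = 0.028) and was called in 12 of 21 fits. It was not called without any 1 of the dbR libraries, without dbdb replicate 1 or 2, with the replicate block, with no filter, with no trend or with only the 6 libraries of the comparison (adjusted p up to 0.15). The part of the clock in the values of the 10 genes was not tested.

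Among 11614 genes at a mean FPKM of 1 or more, the patterns most like those of 4 members were ranked by the root mean square difference of log2 values centred on each gene's mean over the 9 libraries. Nearest to Fkbp5 were Cited4 (0.235), Rasd2 (0.253) and Spp1 (0.255), and nearest to Zbtb16 were Cry1 (0.353), Hif3a (0.406) and Calb1 (0.474). Nearest to Hsd11b1 were Odc1 (0.321), Ggct (0.361) and C1qtnf3 (0.381), all 3 with their highest value in control replicate 3. Nearest to Mt1 were Mpzl2 (0.113), its neighbour Mt2 (0.137) and Hebp1 (0.170).

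Within 20 kb of the members, Nr3c1 left aside, 5 annotated lncRNA transcripts and none of those assembled by the authors were listed. Next to Fkbp5, E230001N04Rik (chromosome 17, 28522720 to 28525398, plus strand, 5193 bases upstream) was 1.59, 0.590 and 1.24 FPKM in control, 2.53, 3.32 and 4.18 FPKM in dbdb and 3.24, 2.91 and 4.03 FPKM in dbR. It lay above control in both db/db groups and, unlike Fkbp5, its dbdb and dbR libraries overlapped. Gm20109, on the other strand at the same place, was 0.488 ± 0.0647 FPKM in control, 0.954 ± 0.390 FPKM in dbdb and 1.28 ± 0.747 FPKM in dbR (SD, n = 3). Gm38118, inside the span of Hsd11b1 and on its strand, overlapped between control and dbdb.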

How the data were processed

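The samples were 9 mouse kidney cortices, each sequenced as 1 strand-specific library after depletion of ribosomal RNA. Per the labels and the paper, the authors aligned the reads to GRCm38.p2 with TopHat2 2.0.9, assembled transcripts with Scripture and Cufflinks 2.1.1, and deposited the FPKM of each transcript, whose division of reads among transcripts of a gene is an estimate. FPKM carries no read counts, so a count test was not used, and the precision is that of 3 libraries per group. Groups and replicate numbers were taken from the labels.

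FPKM of 50660 mRNA transcripts was summed to 21950 genes. The 14537 genes whose mean FPKM reached 0.1 were fitted on log2(FPKM + 0.1) with limma 3.58.1 (R 4.3.3, trend of the variance on the mean), in 1 model of the 3 groups. P-values are two-sided, adjusted by Benjamini-Hochberg over all genes, and called under 0.05. Fold changes on this scale understate those of low genes. The fit was tested on simulated data. The 10 genes and the lists of other genes were chosen with earlier results of these data known. Named were the 10 genes with transcripts holding at least 10% of their FPKM, up to 4 called genes per list and comparison with the largest difference, Dbp, Per1 and Arntl, and the 3 nearest patterns to 4 genes. Mtf1, Slc30a1, Ppp5c, Hsp90aa1, Slc34a1, Star, Per2, Cry1, Bcl6 and the marker genes were named beside them for what they encode or after their values were seen. The values of a gene that the rule names are not reported here. Of 36 listed glucocorticoid-induced symbols, Cavin2 and Sdpr are names of the same gene.

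The annotation was GENCODE of GRCm38, and promoter windows were those of RefSeq on GRCm38.p6. Matches were sought on both strands. 12 alternatives were planned, and the fit with lncRNA genes (16550 genes in all) was added after the data were seen. Sums, overlaps and motif searches were made in python 3.11.15 (pandas 2.3.3, numpy 2.4.6) and plots in matplotlib 3.10.9.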

Additional observations from a re-analysis of the deposited data

How the results depend on the processing

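Each of the 10 genes kept its direction in both dbdb vs. control and dbR vs. dbdb under all alternatives that left out a library, changed the pseudocount, filter, trend or scaling, or fitted 6 libraries, except Nr3c2 and Hsd11b2 in dbR vs. dbdb, whose differences lay near 0. Using the transcript with the highest mean in place of the sum reversed Hsd11b1 in dbR vs. control, to 0.48. With that transcript, 1 gene rather than 2 lay below control in dbdb, 1 above dbdb in dbR and 1 below control in dbR, and 5 rather than 6 below dbdb in dbR (Tsc22d3 overlapped). In dbR vs. control, 1 gene rather than 2 lay below with scaling to the 75th percentile, with mitochondrial genes left out and with quantile normalization, and in dbR vs. dbdb 1 lay above with mitochondrial genes left out. That scaling moved the median of all genes in dbdb vs. control to 0.15, and relative to it Nr3c1 and Klf9 kept their direction. Of the other glucocorticoid-induced genes, the 3 called in dbR vs. dbdb were 0 with no filter, 5 at a mean FPKM of at least 1, 0 with no trend and 0 with only the 6 libraries of the comparison, where 14 had an unadjusted p under 0.05 in the fit reported.

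Leaving out 1 library at a time, the genes of the 10 above control in dbdb were 8 to 8 and below 2 to 2, in dbR vs. dbdb 2 to 3 above and 6 to 6 below, and in dbR vs. control 6 to 7 above and 2 to 3 below. The other glucocorticoid-induced genes called were 20 to 23 in dbdb vs. control (1 of 22 lower without control replicate 3), 0 to 3 in dbR vs. dbdb and 16 to 22 in dbR vs. control. The replicate numbers in the labels gave no sign of pairing. Deviations of libraries with the same number correlated at r between -0.175 and 0.0615 over genes, and those with different numbers between -0.108 and 0.168. With 3 libraries per group this check cannot exclude pairing. With the replicate block 1 of the other glucocorticoid-induced genes was called in dbR vs. dbdb. The cause of these changes was not tested. Counts per gene cannot be had from FPKM, so low genes such as Zbtb16 in control have an unknown counting error.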
